A study of Mus musculus with 10 samples.

Results

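Ptprc, Dock2, Adgre1, Mpeg1, Slc11a1, Arhgap30 and Lcp1 are genes of the blood cell lineage whose products act at the cell surface, in the actin cytoskeleton or in the phagosome. They are 7 of 21956 genes in a table of hippocampal RNA from 10 mice, and all 7 passed the filter on low counts that 14396 genes passed. They were selected on the contrast of these same libraries, because each differed in the same way between the groups, so their values in that contrast are given as a description, without a test. Both groups are of the hMapt genotype, named for the human gene of the microtubule protein tau, and were 6 months old. The 5 circTau6 mice had received AAV-circTau6, an adeno-associated viral vector for a circular RNA made from the tau gene, 80 days earlier. The 5 control mice are labelled only as control, and the extraction text calls such mice control-injected without naming the agent. The labels do not give the promoter or the target cell of the vector. Each library is 1 sample of hippocampus with its own replicate number, and nothing in the labels says whether mice shared a litter or a day.

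CD45, the product of Ptprc, is a transmembrane tyrosine phosphatase of all nucleated blood cells that sets the activity of Src-family kinases. In the brain, CD45 is carried at a low level by microglia, the resident macrophages, and at a higher level by leukocytes that enter from the blood. The other 6 genes share this lineage. F4/80, from Adgre1, is an adhesion G protein-coupled receptor that marks macrophages, DOCK2 activates the GTPase Rac in leukocytes, ARHGAP30 switches small GTPases of the cytoskeleton off, and L-plastin, from Lcp1, bundles actin filaments. Perforin-2, from Mpeg1, is a pore-forming protein of macrophages, and NRAMP1, from Slc11a1, carries divalent metals out of the phagosome.

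Promoter sequence is shown because all members were higher in the same group and because genes of this lineage are often bound by PU.1, an ETS-family factor. RefSeq start sites gave 8 windows of 250 bases upstream for 6 of the 7 genes, read from GRCm38.p6, and Adgre1 had no entry. The letters GAGGAA, a core of PU.1 sites, and GGAAGT, a core shared by ETS factors, were searched on both strands, and a match of one can overlap a match of the other because they share letters. GAGGAA occurred upstream of Ptprc, Dock2 and Slc11a1, and these windows are printed 5′ to 3′ on the gene's strand with either core, or its reverse complement, in capitals. The Ptprc window is chr1:138175306-138175555 on the minus strand, the Dock2 window chr11:34783906-34784155 on the minus strand, and the Slc11a1 window chr1:74374953-74375202 on the plus strand.
Ptprc: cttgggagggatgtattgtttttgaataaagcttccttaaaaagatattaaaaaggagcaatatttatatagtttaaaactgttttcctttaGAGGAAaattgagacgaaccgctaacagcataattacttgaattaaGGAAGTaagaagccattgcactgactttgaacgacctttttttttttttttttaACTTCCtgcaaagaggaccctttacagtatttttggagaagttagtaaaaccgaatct
Dock2: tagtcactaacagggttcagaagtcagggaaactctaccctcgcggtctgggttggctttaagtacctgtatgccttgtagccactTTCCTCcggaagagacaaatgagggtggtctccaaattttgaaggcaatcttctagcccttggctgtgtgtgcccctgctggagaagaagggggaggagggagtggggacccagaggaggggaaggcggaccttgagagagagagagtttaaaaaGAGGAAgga
Slc11a1: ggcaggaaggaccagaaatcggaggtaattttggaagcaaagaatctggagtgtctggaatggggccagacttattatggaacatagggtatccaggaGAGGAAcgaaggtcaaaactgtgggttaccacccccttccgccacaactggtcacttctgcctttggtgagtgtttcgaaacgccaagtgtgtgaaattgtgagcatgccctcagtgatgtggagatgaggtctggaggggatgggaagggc
The Ptprc window held 3 matches, the Dock2 window 2 and the Slc11a1 window 1. The Ptprc window lies inside the GENCODE M21 span of Ptprc, which starts farther upstream, with 1 base in an exon, whereas 8 bases of the Slc11a1 window and 0 of the Dock2 window lie in an exon of their gene.

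Matches of this kind were common among all promoters. GAGGAA was present in 23.3% of 32851 RefSeq windows of the same length and in 3 of the 8 member windows, and GGAAGT in 19.7% of all windows and also in 3 of the 8, belonging to Ptprc and Lcp1, where the 2 Ptprc windows overlap and share 1 match. Either core was found in 36.7% of all windows and in 5 of the 8 member windows, which belong to 4 of the 6 genes with a window. TGTGGT, the core of Runx sites, was in 14.0% of all windows and in 1 member window, that of Arhgap30. The core of the interferon-stimulated response element was in 2.98% of all windows and in 0 of the 8. Mpeg1 held none of these letters in its window. A match is a stretch of letters and not a shown binding site.

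Each member was higher in every circTau6 library than in every control library when counts were expressed as CPM, the count scaled to the library total, after TMM normalisation. Among all 14396 genes tested, 68 had that pattern (0.472%), and since the members were chosen for it, their 7 of 7 carries no weight of its own. The fitted log2 fold change, circTau6 over control, ran from 0.38 for Lcp1 to 1.03 for Ptprc with a median of 0.71, against a median of 0.00 over all genes and positive values in 49.9% of them. The members together made up 58.7 to 70.6 CPM of the control libraries and 89.0 to 95.8 CPM of the circTau6 libraries. In whole tissue, more cells of a type and more RNA per cell cannot be told apart. Across the whole table the edgeR quasi-likelihood test called 0% of genes higher and 0% lower at an adjusted p under 0.05, with 637 genes at an unadjusted p under 0.05, and DESeq2 called 15.

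**Figure D1:**
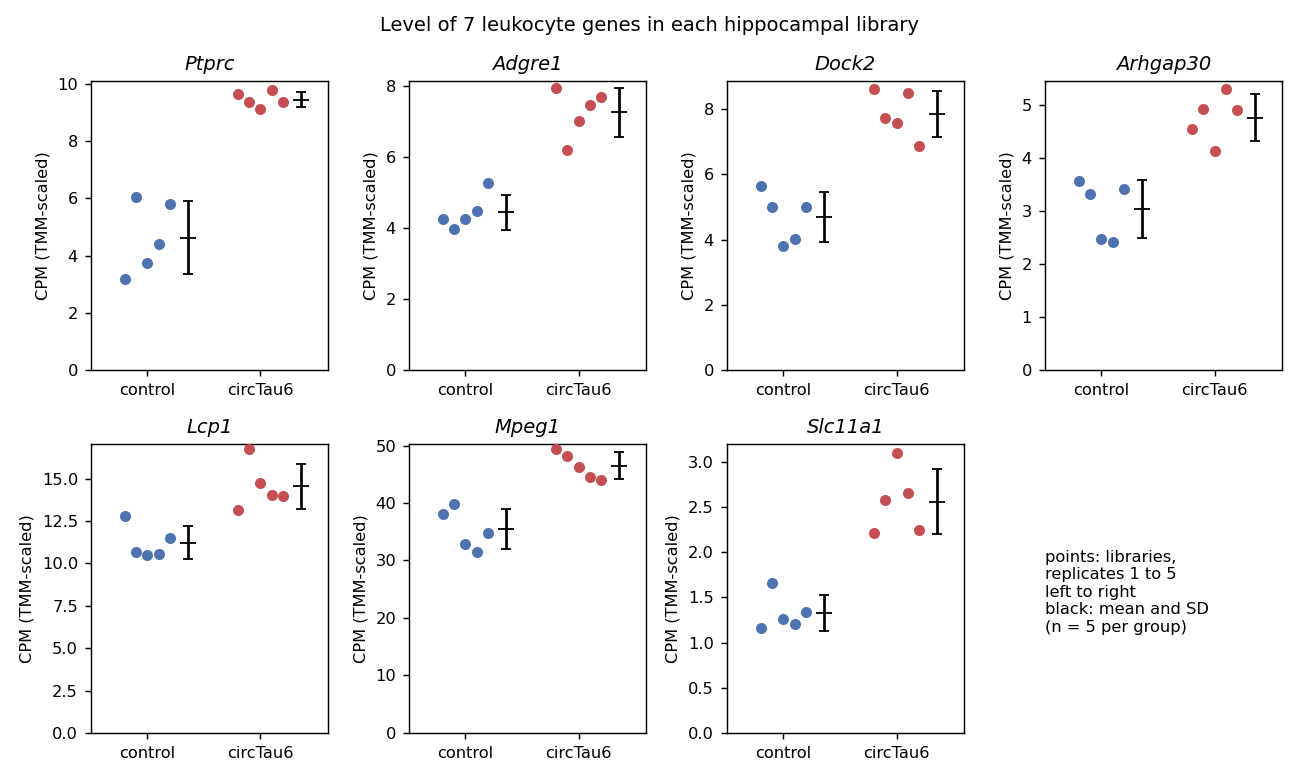
Levels of the 7 genes in each library, in TMM-scaled CPM (y axis, from 0, one panel per gene); points are single mice, control and circTau6 side by side, and the bars give the mean and SD of 5. The circTau6 points stand above every control point in each panel, with the narrowest gap for Lcp1 (0.340 CPM) and the tightest circTau6 group for Ptprc (9.13 to 9.77 CPM).

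Among the surface genes, Ptprc had the largest difference of the 7. Ptprc (ENSMUSG00000026395, chromosome 1 from 138062861 to 138175708, minus strand, GRCm38) stood at 3.17, 6.05, 3.73, 4.42 and 5.81 CPM in control replicates 1 to 5 and at 9.63, 9.37, 9.13, 9.77 and 9.39 CPM in circTau6 replicates 1 to 5. The control libraries were widely spread while the circTau6 libraries almost coincided, and 3.07 CPM separated the highest control from the lowest circTau6 library. The means were 4.64 ± 1.26 CPM (SD, n = 5) and 9.46 ± 0.252 CPM (SD, n = 5), a log2 fold change of 1.03 ± 0.16 (SE). These levels rest on 49 to 102 counts per control library and 138 to 170 per circTau6 library. Counting alone would give a coefficient of variation of 11.6% in control and 7.94% in circTau6 libraries, and the observed values were 27.3% and 2.66%. The control spread was thus wider, and the circTau6 spread narrower, than counting error. Choosing members for consistent differences favours narrow groups, so the spreads of the 7 genes are descriptions.

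Adgre1, the F4/80 gene (ENSMUSG00000004730, chromosome 17 from 57358691 to 57483527, plus strand), varied less among the controls. It stood at 4.27, 3.98, 4.25, 4.49 and 5.27 CPM in the control libraries and at 7.93, 6.21, 7.0, 7.48 and 7.69 CPM in the circTau6 libraries. Control replicate 5 was the highest control and circTau6 replicate 2 the lowest of the treated, with 0.932 CPM between them, on 66 to 79 and 106 to 140 counts per library. The means were 4.45 ± 0.494 and 7.26 ± 0.682 CPM (SD, n = 5 each), and the log2 fold change was 0.71 ± 0.13 (SE). The coefficients of variation, 11.1% and 9.39%, were close to the 11.9% and 9.07% that counting alone would give.

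The 3 genes of the cytoskeleton differed by unequal amounts. Dock2 (ENSMUSG00000020143, chromosome 11 from 34226815 to 34783892, minus strand), the Rac activator, stood at 5.63, 4.98, 3.79, 4.02 and 5.01 CPM in control and at 8.61, 7.73, 7.58, 8.48 and 6.87 CPM in circTau6 libraries. The lowest treated library was replicate 5 and the highest control replicate 1, and 1.24 CPM lay between them. Dock2 means were 4.69 ± 0.763 and 7.85 ± 0.712 CPM (SD, n = 5 each), a log2 fold change of 0.75 ± 0.14 (SE) on 60 to 87 counts per control and 101 to 152 per circTau6 library.

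Arhgap30 (ENSMUSG00000048865, chromosome 1 from 171388954 to 171410298, plus strand), the GTPase-activating protein, was the second lowest of the 7 in CPM. It stood at 3.56, 3.32, 2.47, 2.41 and 3.40 CPM in control and at 4.53, 4.92, 4.13, 5.30 and 4.90 CPM in circTau6 libraries. Its controls split into replicates 3 and 4, near 2.4 CPM, and the other 3, above 3.3 CPM, and no control reached the lowest treated library. Means were 3.03 ± 0.549 and 4.76 ± 0.441 CPM (SD, n = 5 each), with a log2 fold change of 0.65 ± 0.16 (SE) on 36 to 90 counts per library.

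Lcp1 (ENSMUSG00000021998, chromosome 14 from 75131101 to 75230842, plus strand), the actin-bundling L-plastin, had the smallest difference. The control libraries held 12.8, 10.7, 10.5, 10.6 and 11.5 CPM and the circTau6 libraries 13.1, 16.7, 14.8, 14.1 and 14.0 CPM. Control replicate 1 and circTau6 replicate 1 nearly met, 0.340 CPM apart, which is 3.03% of the control mean. Means were 11.2 ± 0.975 and 14.5 ± 1.35 CPM (SD, n = 5 each), and the log2 fold change was 0.38 ± 0.09 (SE). In the deposited TPM, a unit scaled to transcript length and library total, the groups overlapped for Lcp1, where control replicate 1 at 9.95 TPM exceeded the lowest circTau6 library at 9.87 TPM. Separation thus held for 6 of 7 members in TPM, a unit in which 0.563% of all genes tested had every circTau6 library above every control.

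Of the phagosome genes, Mpeg1 (ENSMUSG00000046805, chromosome 19 from 12460779 to 12465283, plus strand) was the most abundant member and the most precisely counted. It stood at 38.1, 39.9, 33.0, 31.5 and 34.8 CPM in control and at 49.4, 48.2, 46.3, 44.5 and 43.9 CPM in circTau6 libraries, on 471 to 872 counts each. All treated libraries lay at least 4.06 CPM above the highest control, replicate 2. Means were 35.5 ± 3.48 and 46.5 ± 2.35 CPM (SD, n = 5 each), a log2 fold change of 0.39 ± 0.07 (SE). Perforin-2 is encoded by 1 transcript of 2 exons in GENCODE M21. The annotation behind the deposited counts is not given, so whether reads were shared among isoforms there cannot be told.

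Slc11a1 (ENSMUSG00000026177, chromosome 1 from 74375195 to 74386062, plus strand), the phagosomal metal transporter, was the least abundant. It stood at 1.16, 1.66, 1.26, 1.21 and 1.34 CPM in control and at 2.21, 2.58, 3.10, 2.65 and 2.24 CPM in circTau6 libraries. The groups were 0.549 CPM apart, 41.4% of the control mean, although the libraries held only 18 to 28 counts in control and 33 to 54 in circTau6. Means were 1.33 ± 0.198 and 2.56 ± 0.361 CPM (SD, n = 5 each), and the log2 fold change of 0.94 ± 0.21 (SE) was the second largest and had the widest error. The coefficients of variation of 15% and 14.1% were below the 21.7% and 15.2% that counting alone would give.

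The members' levels were next compared with each other in TPM, which allows for transcript length. The selection read TPM as well as counts, for differences between the groups and not for the level of one member against another. By control mean and by the mean of all 10 libraries the order was Mpeg1, Lcp1, Adgre1, Ptprc, Dock2, Arhgap30 and Slc11a1, and in the circTau6 libraries alone Slc11a1 came before Arhgap30. Control means were 20.2 ± 2.14 TPM for Mpeg1, 7.94 ± 1.16 for Lcp1, 3.39 ± 0.382 for Adgre1, 2.44 ± 0.664 for Ptprc, 1.80 ± 0.307 for Dock2, 1.67 ± 0.314 for Arhgap30 and 1.41 ± 0.219 for Slc11a1 (SD, n = 5 each). The circTau6 means were 26.7 ± 1.19 TPM for Mpeg1, 10.6 ± 0.597 for Lcp1, 5.62 ± 0.554 for Adgre1, 5.20 ± 0.356 for Ptprc, 3.06 ± 0.277 for Dock2, 2.64 ± 0.255 for Arhgap30 and 2.75 ± 0.386 for Slc11a1 (SD, n = 5 each). Mpeg1 in control was higher than 66.9% of the 21956 rows of the table and Slc11a1 higher than 38.4%. Only 14396 of these rows passed the filter on low counts, so these shares are not ranks among the genes tested.

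The 6 neighbour pairs in that order were compared within libraries with exact two-sided sign-flip permutation tests on log2 TPM. The p-values were adjusted over the 6 pairs, and the smallest possible raw p is 0.00195. Both the pairs and their direction were taken from the same TPM values. The p-values thus describe how steady each difference was over the libraries and do not test an order set beforehand. Mpeg1 exceeded Lcp1 by 1.34 ± 0.15 and Lcp1 exceeded Adgre1 by 1.07 ± 0.27 on the log2 scale (SD, n = 10), each in 10 of 10 libraries (exact permutation, adjusted p = 0.00586). Ptprc exceeded Dock2 by 0.59 ± 0.37 and Dock2 exceeded Arhgap30 by 0.17 ± 0.14 (SD, n = 10), each in 9 of 10 libraries (exact permutation, adjusted p = 0.00586). Adgre1 lay 0.31 ± 0.36 above Ptprc in 8 of 10 libraries (exact permutation, n = 10, adjusted p = 0.0305), a call that was lost when any of 6 single libraries was left out: control replicate 1, 3, 4 or 5, or circTau6 replicate 1 or 5, with differences of 0.24 to 0.32. Arhgap30 and Slc11a1 did not differ beyond their spread at 0.09 ± 0.31 (exact permutation, n = 10, adjusted p = 0.357), but passed at 0.16 without circTau6 replicate 3. These tests pool groups in which the members differ by unequal amounts. Adgre1 lay above Ptprc by 0.51 in control and 0.11 in circTau6 libraries, Ptprc above Dock2 by 0.41 and 0.77, and Lcp1 above Adgre1 by 1.22 and 0.92 on the log2 scale. The difference of Arhgap30 over Slc11a1 changed sign, from 0.23 in control to -0.05 in circTau6 libraries. Within 5 libraries the smallest possible p is 0.0625, so neither group alone can pass.

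**Figure D2:**
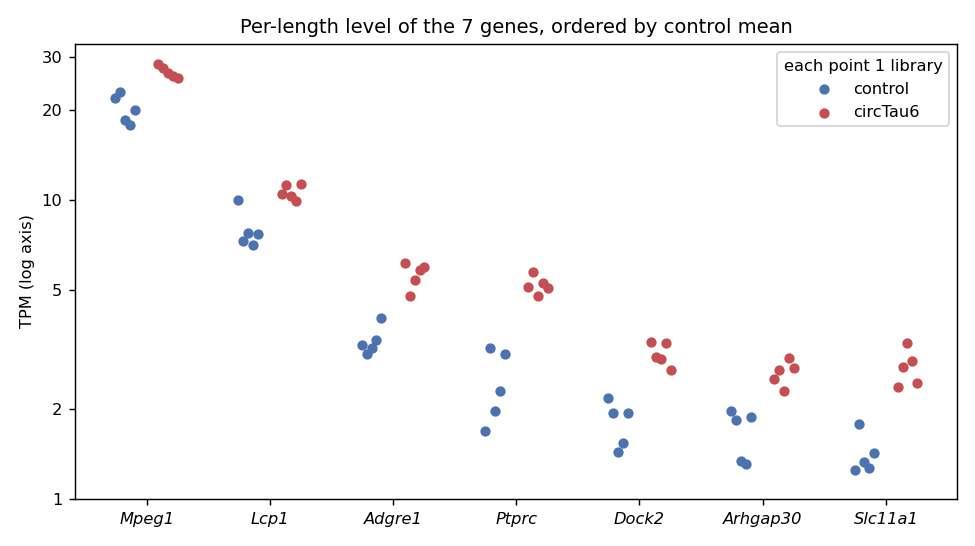
Deposited TPM of the 7 genes (y axis, log scale), ordered by control mean, with a point per library coloured by group. Mpeg1 stands apart at the top in all 10 libraries, while Dock2, Arhgap30 and Slc11a1 share the range of about 1 to 4 TPM.

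The TPM of 2 members did not track their counts exactly. The ratio of CPM to TPM of a gene varied by at most 1.02-fold over the 10 libraries for Dock2, Adgre1, Mpeg1, Slc11a1 and Arhgap30, but by 1.19-fold for both Ptprc and Lcp1. For Ptprc the departure was circTau6 replicate 2 alone, at 0.861 of the gene's median ratio. For Lcp1 it was control replicates 1 and 3 and circTau6 replicates 1 and 5, at 0.867 to 0.917 of the median. Ptprc has 13 and Lcp1 11 transcripts in GENCODE M21, but Slc11a1 also has 11, and its ratio varied by only 1.01-fold. The cause of these departures was not tested, and CPM is unaffected by this ratio.

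With each group's mean removed, the members did not move as 1 block from mouse to mouse. Over the 10 libraries the 21 pairs of members had Pearson correlations of log2 CPM from -0.40, for Adgre1 with Lcp1, to 0.78, for Dock2 with Arhgap30, with a median of 0.17 and 17 positive. The next highest were 0.74 for Dock2 with Mpeg1, 0.58 for Mpeg1 with Arhgap30, 0.52 for Ptprc with Slc11a1 and 0.47 for Arhgap30 with Lcp1. Against the mean of the other 6, Dock2 and Arhgap30 had 0.73, Mpeg1 0.57, Ptprc 0.26, Slc11a1 0.18, Lcp1 0.13 and Adgre1 -0.18. These points share their libraries and their depth, several genes have counts under 100, and the coefficients are given as descriptions without a p.

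Single libraries differed in how many members stood high. In control replicate 3, 0 of 7 members were above the group mean, and in control replicate 4 only 1, against 6 in control replicate 5 and 5 in control replicate 2. Control replicate 1 was mixed, with Ptprc 0.49 below the group mean on the log2 scale while Dock2, Arhgap30 and Lcp1 were the highest of the controls. The circTau6 libraries were more even, with 2 to 5 members above their group mean.

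**Figure D3:**
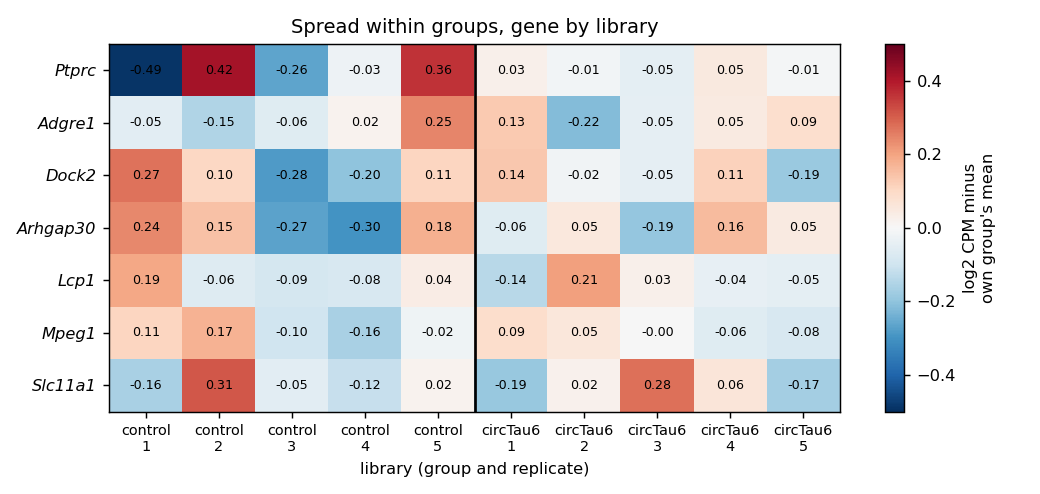
Deviation of each gene from its own group's mean in each library, in log2 CPM, genes in rows and libraries in columns, with colour for the sign and size. Control replicate 3 is below the mean for all 7 genes, and Ptprc in control replicates 1 (-0.49) and 2 (0.42) gives the extremes.

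The genes whose profile was most like the members' were ranked by Pearson correlation of group-centred log2 CPM with the members' mean standardised profile, over 10 libraries and 12797 genes. The first 8 were Npcd and Adissp at 0.93, Fam32a at 0.91, Zcchc2, Rab3b and Rnaseh2a at 0.90, and Pdcd2 and Hgsnat at 0.89. Their own log2 fold changes after circTau6 ran from -0.14 for Pdcd2 to 0.45 for Npcd. The ranking rests on few libraries, since leaving out any 1 of them kept 1 to 6 of these 8 among the first 8. Over all 12797 genes the correlations ran from -0.95 to 0.93 with a median of -0.01. Values as far from 0 as those of the first 8 thus occurred in the negative direction too.

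Family relatives of the members, most of them expressed well beyond blood cells, lay close to 0. Of 19 related genes chosen by family, 17 passed the count filter, 0 were called with edgeR (lowest adjusted p 0.981) and 0 had an unadjusted p under 0.05. Their log2 fold changes ran from -0.08 for Ptprj to 0.06 for Dock5, with a median of -0.01 (-0.03 to 0.01 with 1 library left out) and 8 of 17 positive. Adgre4, with 3 counts in all, and the T cell perforin gene Prf1, with 4, were too low to test.

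The receptor phosphatases beside CD45 were Ptpra at -0.02 ± 0.04, Ptpre at -0.04 ± 0.06, Ptprj at -0.08 ± 0.05 and Ptprz1 at 0.00 ± 0.06 in log2 fold change (SE). The DOCK family gave 0.02 for Dock1, 0.05 for Dock3, -0.04 for Dock4 and 0.06 for Dock5, all of them guanine nucleotide exchange factors, in log2 fold change. Adgre5, the CD97 receptor and the nearest tested relative of F4/80, had 0.05 ± 0.15 (SE), and the adhesion receptors Adgrg1 and Adgrl2 had 0.04 and -0.06. Slc11a2, the iron transporter DMT1, had -0.01 ± 0.06 (SE), and the plastins Pls3 and Pls1 had -0.03 ± 0.04 and -0.02 ± 0.09 (SE). Arhgap31, Arhgap32 and Arhgap33 stood at 0.02, 0.03 and -0.05.

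In 6 families with a tested relative, the leukocyte member was the lowest of the tested genes in 10 of 10 libraries in TPM. Lcp1 at 7.94 TPM in control compares with 12.8 TPM for Pls1 and 244 TPM for Pls3. Slc11a1 at 1.41 TPM compares with 30.9 TPM for Slc11a2, Dock2 at 1.80 TPM with 4.99 TPM for Dock5, Adgre1 at 3.39 TPM with 8.29 TPM for Adgre5, Arhgap30 at 1.67 TPM with 12.8 TPM for Arhgap31, and Ptprc at 2.44 TPM with 29.5 TPM for Ptpre. Mpeg1 is the reverse case, with Prf1 at 0.03 TPM in both groups.

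**Figure D4:**
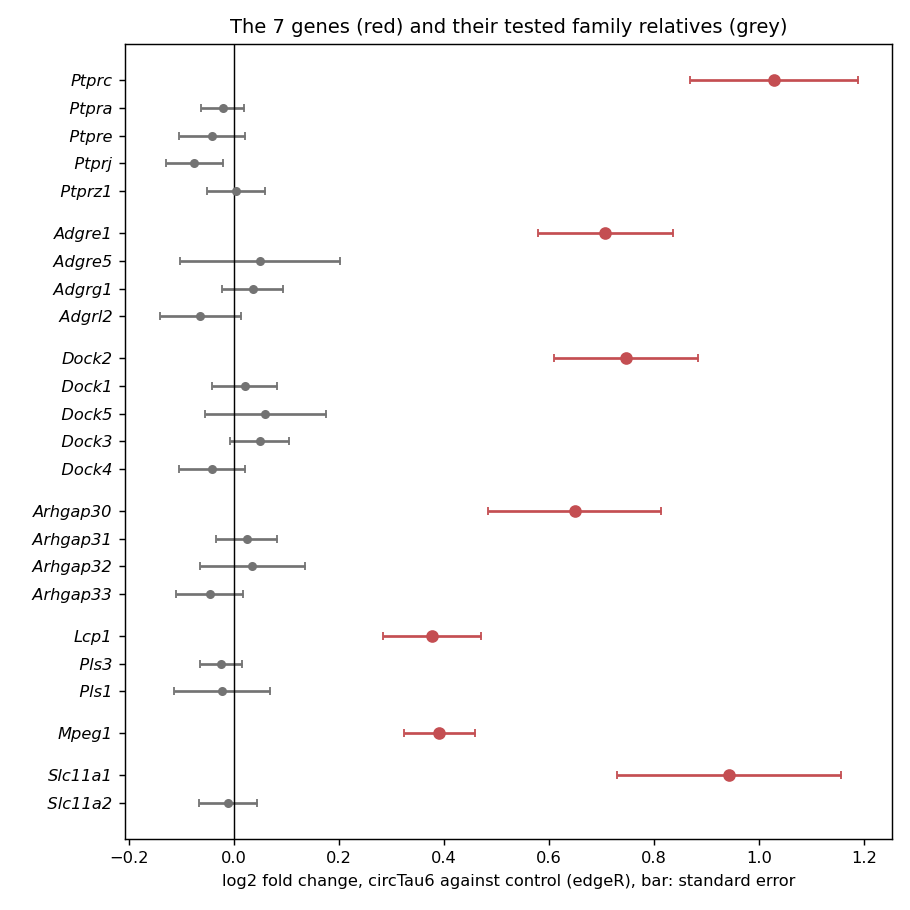
Log2 fold change, circTau6 over control, of the 7 genes and of the tested relatives of each family, with the standard error of the edgeR fit as bars. The relatives lie between -0.08 and 0.06 and the selected genes between 0.38 and 1.03, the gap being partly set by how the latter were chosen.

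Companion genes of the members were read from lists that hold no member. Their background is that 2.58% of all genes tested had an unadjusted p under 0.05 and a higher value, and 1.85% a lower one. Of these lists 0 genes were called with edgeR at an adjusted p under 0.05, in either direction. Of 14 tested leukocyte surface genes out of 16, 14 were positive, the median log2 fold change being 0.35, and 6 had an unadjusted p under 0.05, all in the higher direction. The summed level of that list was 88.3 to 106 CPM in control and 114 to 118 CPM in circTau6 libraries, without overlap. Of its single tested genes, 0 of 14 separated the groups in that way, against 0.472% of all genes tested. Laptm5 and Itgam, with control means of 30.8 and 25.8 CPM, held the largest parts of the sum. How often such sums separate the groups was not tested. Itgb2, the integrin chain CD18, had 5.44 ± 1.19 CPM in control against 7.89 ± 1.01 CPM in circTau6 libraries (SD, n = 5 each), a log2 fold change of 0.54 ± 0.16 (SE) that was not called (edgeR adjusted p = 0.981). Itgal, the CD11a chain, had 0.87 ± 0.35 and Itgam, the CD11b chain of microglia and other myeloid cells, 0.15 ± 0.10 (SE).

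The phagocyte oxidase, the superoxide-forming enzyme of the phagosome, gave 4 of 5 subunits positive, a median of 0.27 (0.14 without circTau6 replicate 3) and 2 at an unadjusted p under 0.05. Its summed level was 14.0 to 17.6 CPM in control and 19.2 to 20.2 CPM in circTau6 libraries, while 0 of its 5 genes separated the groups alone. Cybb, the catalytic subunit, had 1.49 ± 0.455 and 2.88 ± 0.714 CPM (SD, n = 5 each), or 0.95 ± 0.26 (SE) in log2 fold change. Its edgeR adjusted p, 0.852, was the lowest of all companion lists. Cyba and Ncf1 had 0.27 ± 0.22 and 0.40 ± 0.14 (SE).

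Genes that act with CD45 and DOCK2 were read next. Of 15 tested genes of CD45 signalling, 12 were positive with a median of 0.14 and 2 at an unadjusted p under 0.05, where the Src-family kinases Lyn and Fyn had log2 fold changes of 0.14 and 0.03. Of 16 genes of the DOCK2 and Rac route, 9 were positive with a median of 0.01 (-0.01 to 0.03 with 1 library left out) and 2 at an unadjusted p under 0.05. Within it Rac2, the Rac of blood cells, had 2.01 ± 0.504 CPM in control against 3.22 ± 0.873 CPM in circTau6 libraries (SD, n = 5 each), a log2 fold change of 0.68 ± 0.24 (SE). The widely expressed Rac1 had -0.04 ± 0.05 and Elmo1, the partner of DOCK2, 0.11 ± 0.10 (SE).

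Of 19 tested actin genes of leukocytes, 16 were positive with a median of 0.20 (0.32 without control replicate 2) and 0 at an unadjusted p under 0.05. The actin-binding Coro1a had -0.10, Hcls1 0.26 and Was, the Wiskott-Aldrich gene, 0.33 in log2 fold change. For metal handling 7 of 12 were positive with a median of 0.02, which ranged from -0.01 to 0.03 with 1 library left out, and the iron exporter Slc40a1 had -0.13 and the haem oxygenase Hmox1 0.01. Of 3 tested genes for pores and lysis, 2 were positive, with Gsdmd at 0.20, Gsdme at -0.12 and the lysozyme gene Lyz2 at 0.64. Their median of 0.20 was -0.12 without the filter on low counts, 0.06 without control replicate 5 or circTau6 replicate 4 and 0.32 without control replicate 3. Of 12 myeloid transcription factors, 7 were positive with a median of 0.08 and 2 at an unadjusted p under 0.05. That median was 0.02 without circTau6 replicate 5 and 0.12 without control replicate 2 or circTau6 replicate 3. Spi1, which encodes PU.1, had 0.38 ± 0.22, Irf8 0.38 ± 0.16 and Runx1 -0.16 ± 0.32 (SE).

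**Figure D5:**
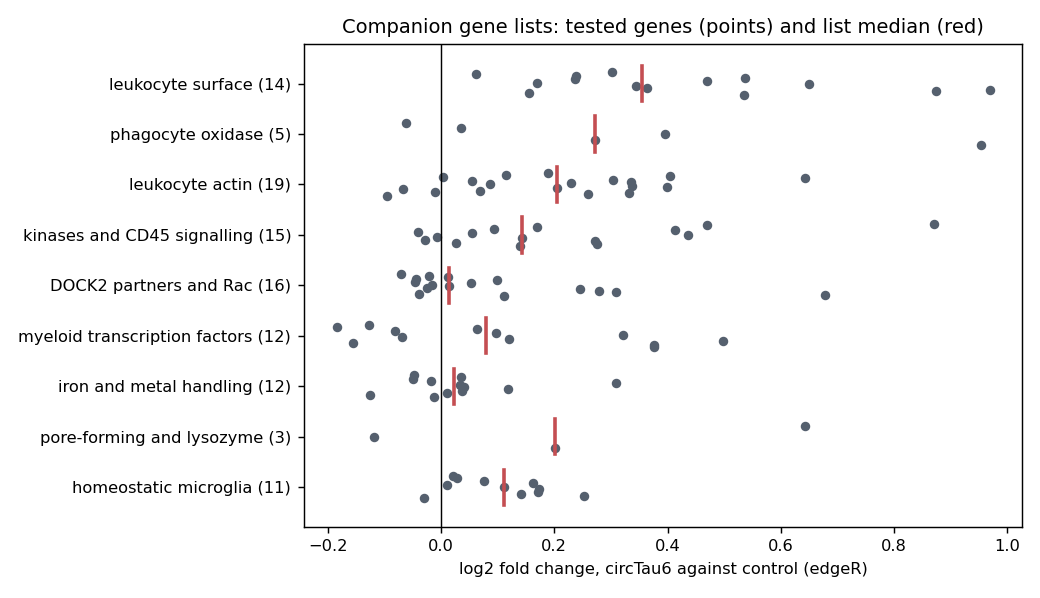
Log2 fold change, circTau6 over control, of each tested gene in the companion lists and the microglia markers (x axis), a row per list with its number of tested genes, points for genes, a red mark for the list median and a black line at 0. Leukocyte surface genes lie above 0 in 14 of 14, while the DOCK2 and Rac list (median 0.01) and the metal handling list (median 0.02) centre near 0. Single genes of the DOCK2 and Rac list run from -0.07 to 0.68, the highest being Rac2.

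Markers of the cells that could carry these genes were read in the same libraries. Of 12 microglia markers 11 were matched in the table and tested, and 10 were positive with a median log2 fold change of 0.11 (0.0697 with voom), 5 of them at an unadjusted p under 0.05. Their sum was 397 to 427 CPM in control and 430 to 456 CPM in circTau6 libraries, 1.09 times as high on average. Tmem119 had 16.7 ± 1.22 and 19.9 ± 1.55 CPM, and P2ry12 48.5 ± 6.33 and 47.6 ± 7.14 CPM (SD, n = 5 each). The defining microglia markers were thus present in all libraries.

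The members' levels were also expressed per 1000 CPM of that marker sum, in the contrast that chose them, so these ratios carry no weight of their own. The ratio of the group means, circTau6 over control, was 1.88 for Ptprc, 1.78 for Slc11a1, 1.55 for Dock2, 1.5 for Adgre1, 1.44 for Arhgap30, 1.21 for Mpeg1 and 1.19 for Lcp1. The Lcp1 values of the groups overlapped on this scale. Mpeg1 and Lcp1, the most abundant members, had the smallest of these ratios, as they had the smallest log2 fold changes. The part of microglia markers in the members' difference was not tested.

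Markers of cells that enter from blood were read in the same way. Of 11 T and NK cell markers 0 passed the count filter. Their sum was 15 to 29 counts (0.861 to 1.72 CPM) in control and 34 to 67 counts (1.93 to 3.92 CPM) in circTau6 libraries, without overlap. How often sums of so few counts separate the groups was not tested. Among these markers Cd3e had 0 to 2 counts in control and 1 to 5 in circTau6 libraries, and Cd3d 0 to 1 and 0 to 2. Cd8a, chosen after its values were seen, had 0 to 3 counts in control and 4 to 14 in circTau6 libraries. The groups overlapped for every other marker of this list. Cd4 had 2 to 13 counts in both groups, Klrd1 0 to 3 in both and Gzma 0 to 1 in both. T cells carry Ptprc, Dock2, Arhgap30 and Lcp1, and the part of these markers in the members' difference was not tested.

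Neutrophil markers, of which 0 of 8 passed the filter and Ly6g was at 0 in all libraries, summed to 0.119 to 2.40 CPM in control and 0.793 to 3.89 CPM in circTau6 libraries. Of 7 monocyte markers 2 passed, and Ccr2, a chemokine receptor of blood monocytes, had 0.393 ± 0.534 CPM in control against 1.10 ± 0.376 CPM in circTau6 libraries (SD, n = 5 each). Its log2 fold change of 1.52 ± 0.60 (SE) became 2.78 without control replicate 4, which held 1.34 CPM. The monocyte sum, set largely by Fn1, was 73.8 to 108 CPM in control and 88.8 to 178 CPM in circTau6 libraries. Border macrophage markers, 5 of 7 tested with a median of 0.31, summed to 10.5 to 19.4 CPM and 7.49 to 28.9 CPM, where Mrc1 had 0.29, Cd163 0.31 and Lyve1 -0.09 in log2 fold change.

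B and plasma cell markers, 3 of 8 tested, summed to 22.3 to 69.9 CPM in control and 18.1 to 171 CPM in circTau6 libraries, with Ighm at 0.57, Igkc at 1.32 and Jchain at 1.33 in log2 fold change. Dendritic markers, 3 of 6 tested, had 16.0 to 19.95 CPM and 16.9 to 21.7 CPM in sum, with Flt3 at -0.12, Zbtb46 at 0.23 and Clec9a at 0.79. Of 4 mast cell markers 0 passed, with sums of at most 0.734 CPM in control against 0.459 CPM in circTau6 libraries. Red cell markers, 4 of 7 tested and all negative with a median of -0.89, summed to 7.70 to 63.8 CPM and 3.33 to 17.7 CPM. The globin genes Hba-a1, Hba-a2 and Hbb-bs had -0.53, -0.91 and -0.86 in log2 fold change, Hba-a1 turned to 0.62 without control replicate 3, the library with the highest red cell sum, and reads can be shared between such near-identical copies. The part of each of these lists in the members' difference was not tested.

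The libraries carried the labelled tissue, with hippocampal neuron markers at 776 to 908 CPM in control and 779 to 866 CPM in circTau6 libraries, where Prox1, Wfs1 and Spink8 had -0.04, 0.21 and -0.27 1 of 7 was positive and 2, both lower, had an unadjusted p under 0.05. Astrocyte and oligodendrocyte lists had medians of -0.01 and -0.03, with Aqp4 at -0.02, Gja1 at -0.01, Slc1a2 at -0.04, Mbp at 0.01 and Mog at -0.04. Meningeal and endothelial lists had medians of 0.29 and 0.15, with Col1a1 at 0.20, Col1a2 at 0.32, Dcn at 0.06, Cldn5 at 0.20, Pecam1 at 0.05 and Flt1 at -0.02. Total counts were 14762952 to 17647138 per library, where 3 counts equal 0.170 to 0.203 CPM, and each of the 45 library pairs showed differences beyond counting error. Control replicate 2 and circTau6 replicate 5 were poor in choroid plexus, with 650 and 411 counts of Ttr against 28538 to 86422 in the others, and the choroid median was 0.02, with Folr1 at 0.06 and Kl at -0.01. Without both of these libraries the members' log2 fold changes ran from 0.37 to 1.15 with a median of 0.67, and 7 of 7 stayed positive. Because the members' groups did not overlap in CPM, a sign could hardly change here. The part of choroid content in the members' difference was not tested.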

How the data were processed

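RNA was measured in 5 control and 5 circTau6 hippocampal libraries, grouped by the treatment label. Per the labels' protocols, the libraries were depleted of ribosomal RNA, kept strand and were read from both ends. StringTie 1.3.1 and RSEM appear in the submitters' processing notes without a role. The aligner, build and annotation were not given in the sources used here. The authors' table holds, per the file headers, a count and a TPM per gene and library, the group means of TPM, a log2 fold change, a p-value and an FDR. The deposited log2 fold change equals the log2 ratio of the TPM means. The test behind the deposited p-value is not given, and no p of that table is used. In the deposited counts 108 entries were 0 beside a TPM above 0, so rounding of estimated counts is possible, and the values were used unchanged.

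Counts were filtered with filterByExpr, scaled with TMM and compared with edgeR 4.0.16 (quasi-likelihood, robust fit, R 4.3.3), adjusted by Benjamini-Hochberg over 14396 genes at 0.05. Standard errors were derived from the log2 fold change and the F statistic. Log2 CPM used a prior count of 2. Of the table's IDs, 21804 matched GENCODE M21 on GRCm38, and coordinates are from there. RefSeq promoter windows on GRCm38.p6 were matched by symbol. The p-values of the group contrast rest on the spread between 5 samples per group, and counting limits cover counting error only. The permutation p-values of the members' order rest on differences within the 10 libraries of both groups. The members and all lists were chosen with earlier results of these data known. Genes named are the members, their relatives, the first 3 tested genes in written order of each list (none held a called gene, and a few of these genes are not reported here), the 8 genes most like the members at a mean log2 CPM no lower than 1, excluding predicted genes, and Ttr. Alternatives were RLE size factors, library size alone, no filter, DESeq2 1.42.0, voom with quality weights of limma 3.58.1 (called voom here) and a replicate block. Further settings were other TPM pseudocounts, each library left out, and both choroid-poor libraries left out. The scripts were tested on simulated data.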

Additional observations from a re-analysis of the deposited data

Results flagged for a closer look

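Of 96 groups of 5 libraries examined, 3 held a library far from the other 4 by Dixon's ratio, where chance gives about 5% of groups. Ptprz1, a relative of Ptprc, stood at 358 CPM in control replicate 2, a library poor in choroid plexus, and at 316 to 324 CPM in the other controls. Slc11a2, the relative of Slc11a1, stood at 42.1 CPM in control replicate 5 and at 44.7 to 45.7 CPM in the other controls. The summed red cell markers stood at 63.8 CPM in control replicate 3 and at 7.70 to 19.0 CPM in the other controls. In that library 0 of 7 members were above the control mean.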

How the results depend on the processing

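The log2 fold changes of all 7 members kept their sign and stayed within the spread of replicates under the 9 other settings and with each library left out. Since the groups did not overlap in CPM for any member, leaving out a library could hardly turn a sign. The kept signs thus carry no weight of their own. Without 1 library they ranged over 0.92 to 1.14 for Ptprc, 0.68 to 0.82 for Dock2, 0.67 to 0.77 for Adgre1, 0.35 to 0.44 for Mpeg1, 0.86 to 1.04 for Slc11a1, 0.58 to 0.71 for Arhgap30 and 0.32 to 0.43 for Lcp1. The count of genes called over the whole table, 0 with edgeR, became 2 with library size alone and 2 without a filter on low counts (Ctss and Ptprc in both), 15 with DESeq2, 3 without both choroid-poor libraries (Ctss, H2-Aa and Ptprc) and 0 with RLE or voom, where 743 genes had an unadjusted p under 0.05. Ptprc was chosen on this contrast, and the other genes named here after their values were seen. Leaving out 1 library gave 0 to 4 calls: 4 without circTau6 replicate 5 (Cd74, Ctss, Cxcl9 and H2-Aa), 1 without control replicate 1 (Ctss) and 1 without control replicate 3 (Gm49358). With the replicate block 4 genes were called (C4b, Ctss, H2-D1 and H2-K1), but same-numbered libraries correlated at 0.17, 0.20, 0.23, 0.10 and -0.17 over 10468 genes, and none correlated best with its own number, so the numbers were not taken to pair the mice. The cause of these shifts was not tested. List medians moved for the relatives with library size alone (0.0116), for pore-forming genes without a filter (-0.12, with more genes tested), for microglia markers with voom (0.0697) and for leukocyte actin genes (0.17 to 0.32 without 1 library, highest without control replicate 2). Without 1 library the medians ranged from 0.14 to 0.38 for the phagocyte oxidase, 0.06 to 0.32 for pore-forming genes and 0.02 to 0.12 for myeloid transcription factors. In control libraries alone, where no p can pass, the order differences were 1.35, 1.22, 0.51, 0.41 and 0.12 from Mpeg1 over Lcp1 to Dock2 over Arhgap30, and 0.23 for Arhgap30 over Slc11a1. In circTau6 libraries alone the same 6 were 1.33, 0.92, 0.11, 0.77, 0.21 and -0.05. Without 1 library, Adgre1 over Ptprc ranged from 0.24 to 0.37 and Arhgap30 over Slc11a1 from 0.0239 to 0.157. Of the 8 genes most like the members, 1 to 6 were kept without 1 library and 2 without both choroid-poor libraries. Hba-a1 turned from -0.53 to 0.62 without control replicate 3. Depth limits Slc11a1 (18 to 54 counts) and Arhgap30 (36 to 90 counts) most.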
